A study of Homo sapiens with 6 samples.

Results

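The writers, erasers and readers of N6-methyladenosine (m6A) were examined in HCT116 cells with and without PLEK2 knockdown. The 10 genes are METTL3, METTL14, WTAP, FTO, ALKBH5, YTHDF1, YTHDF2, YTHDF3, YTHDC1 and IGF2BP2. They were chosen by symbol among the 17047 genes of the deposited table, and all 10 were listed and passed the filter on low counts that left 12959 genes for testing. HCT116 is an established line of human colorectal carcinoma cells. Messenger RNA selected on oligo(dT) beads was sequenced in 3 libraries labelled shNC, a non-targeting shRNA, and in 3 labelled PLEK2 knockdown, here called PLEK2 shRNA. Both groups are transduced cells, since the study's methods place its shRNAs in the lentiviral vector pLKO.1. The study lists a single shRNA against PLEK2, so the knockdown group rests on 1 hairpin. Neither the time after transduction nor the separateness of the cultures is given, so a p-value measures only the spread between these libraries, which may be technical.

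m6A is a methyl group on the adenosines of RNA, and it is the most common internal modification of messenger RNA. METTL3 and METTL14 form the core of the enzyme that writes it, with WTAP as an adaptor that holds the complex at nuclear speckles. FTO and ALKBH5 are demethylases that can take the methyl group off again. Proteins with a YTH domain bind methylated sites directly: YTHDC1 acts in the nucleus, YTHDF1, YTHDF2 and YTHDF3 act in the cytoplasm, and YTHDF2 is best known for handing transcripts to deadenylases. IGF2BP2 binds RNA through KH domains and is described as a reader that stabilises its targets. PLEK2, a pleckstrin homology domain protein, was studied as a partner of YTHDF2 in colorectal cancer, which raises the question of whether the levels of YTHDF2 and the rest of the m6A machinery shift when PLEK2 is silenced.

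The PLEK2 target and the YTHDF2 targets of the study are shown because they separate the hairpin of the PLEK2 shRNA libraries from those aimed at one of the readers. Each is 21 bases of coding sequence, written 5′ to 3′ as the sense strand of the transcript. Capitals in the PLEK2 target mark the 7 bases that pair with bases 2 to 8, the seed, of the expected guide strand.
PLEK2-shRNA: gctggtgtactacAAGCTTGa
YTHDF2-shRNA#1: tctggatatagtagcaattat
YTHDF2-shRNA#2: gctactctgaggacgatattc
The PLEK2 target matched PLEK2 alone among GENCODE 44 transcripts, starting at base 202 of its canonical transcript. Its closest stretches had 8 mismatches in YTHDF1, 9 in YTHDF2 and 7 in YTHDF3. The first YTHDF2 target had 7 mismatches to its closest stretch in YTHDF1 and 3 in YTHDF3, and the second had 2 in YTHDF1 and 3 in YTHDF3. The 7 mismatches of the first in YTHDF1 are no fewer than the unrelated PLEK2 target had in YTHDF3. The 7-base seed match AAGCTTG, searched on the sense strand, was in the 3′ UTR of 0 of the 10 genes, against 10.5% (1310 of 12459) of the tested genes with an annotated 3′ UTR. A match to these letters is a description and not a binding site, and their absence says nothing on other ways in which a hairpin could act.

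The depth and the labels were checked first. Library totals lay between 14377532 and 15602732 estimated counts, and each of the 10 genes had between 324 and 2878 counts in each library. PLEK2 was at 59.95, 50.77 and 58.33 FPKM (fragments scaled to transcript length and library total) in shNC replicates 1, 2 and 3 and at 11.62, 22.81 and 25.03 in PLEK2 shRNA replicates 1, 2 and 3, with no overlap. On the log2 scale PLEK2 differed by -1.54 (adjusted p 0.684, edgeR) without and by -1.57 (adjusted p 0.00106, edgeR) with the replicate number as a block. The 7 colorectal epithelial markers summed to between 4211 and 4851 FPKM in shNC and between 3452 and 4519 in PLEK2 shRNA libraries, carried by KRT8 and KRT18, while KRT20 and LGALS4 were at no more than 1.26 and 0.36 FPKM. Of 7 markers of immune cells, fibroblasts and endothelium, 6 were listed and summed to between 25.9 and 37.3 FPKM in shNC and 27.3 and 33.4 in PLEK2 shRNA libraries, almost all from CD68 and COL1A1, while CD3E, COL1A2, PECAM1 and CDH5 were at no more than 0.05. In these bulk libraries a smaller number of cells and less RNA per cell cannot be told apart.

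All 10 genes were expressed in every library, METTL14 and FTO near the middle of the tested genes. None of the 10 passed an adjusted p of 0.05 for PLEK2 knockdown. At that level edgeR called 0% of all tested genes without and 0.849% with the replicate number as a block. By level, the adaptor WTAP and the reader YTHDF2 led, with means over the 6 libraries of 63.4 and 59.1 FPKM. METTL14 and FTO were lowest, at 9.05 and 10.3 FPKM. These means placed METTL14 at the 46.9th and WTAP at the 89.9th percentile of the tested genes. FPKM divides by transcript length, so levels were set against each other between genes on this scale. The unit was inferred and the annotation behind the lengths is unsettled, so the order of genes depends on lengths that are not known.

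The order ran WTAP, YTHDF2, IGF2BP2 (44.7 FPKM), ALKBH5 (34.3), YTHDF1 (33.4), YTHDC1 (25.2), METTL3 (23.5), YTHDF3 (19.4), FTO and METTL14. YTHDF2 stood above IGF2BP2, IGF2BP2 above ALKBH5, YTHDF1 above YTHDC1 and YTHDF3 above FTO in 6 of 6 libraries with no overlap of their ranges, and the last of these steps was a ratio of 1.88. METTL3 was above YTHDF3 within each of the 6 libraries, although their ranges overlapped. WTAP exceeded YTHDF2 in 5 libraries, ALKBH5 exceeded YTHDF1 in 4, YTHDC1 exceeded METTL3 in 5 and FTO exceeded METTL14 in 5, and in these neighbours the ranges overlapped too, so their order did not hold in every library.

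**Figure D1:**
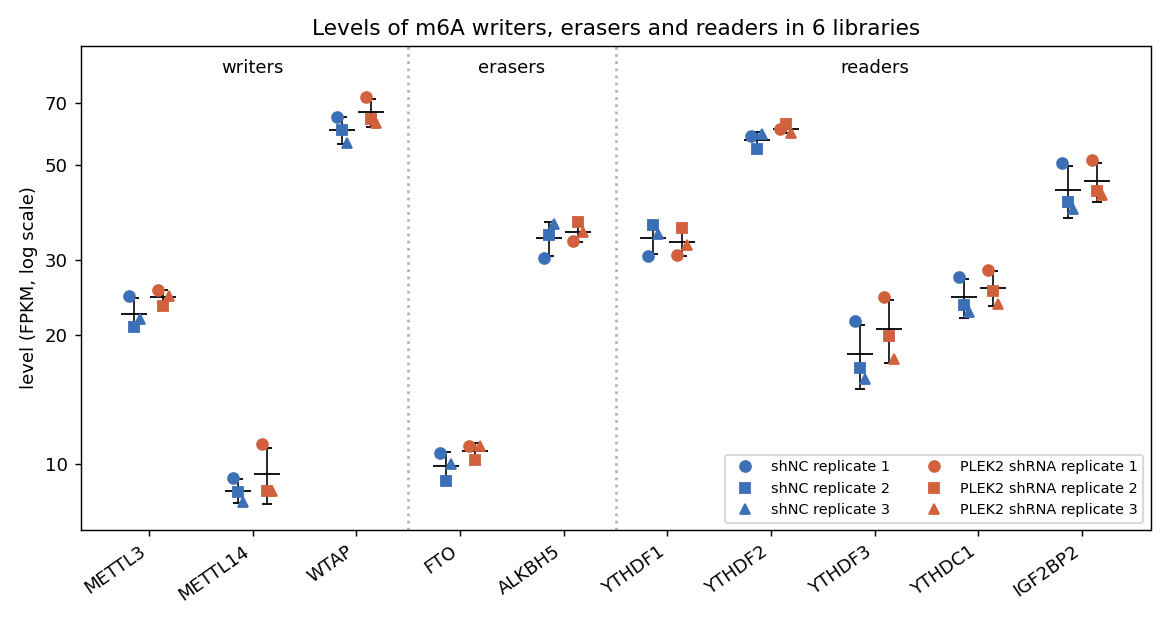
Level of each gene in FPKM (log axis) in the 3 shNC libraries (blue) and the 3 PLEK2 shRNA libraries (red), with marker shape for the replicate number and black bars for the group mean ± SD (n = 3). The groups overlap in 9 of 10 genes, YTHDF2 being apart by 0.35 FPKM, and the circles of replicate 1 lie at the top of both groups for METTL3, METTL14, WTAP, FTO, YTHDF3, YTHDC1 and IGF2BP2.

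The groups were compared in fits with and without the replicate number as a block, and p-values were adjusted by the Benjamini-Hochberg method over all tested genes. Without a block, edgeR's quasi-likelihood test called 0 of the 10 genes at an adjusted p of 0.05, where the background over all tested genes was 0%, and 0 of 10 at an unadjusted p of 0.05, where it was 3.09% (400 genes). Adjusted p-values for the 10 genes lay between 0.968 and 0.990. DESeq2's Wald test called 0 of the 10 at an adjusted p of 0.05, where it called 12 of all tested genes (0.0926%). With the replicate number as a block, 0 of the 10 passed an adjusted p of 0.05 (background 0.849%) and 1, YTHDF3, had an unadjusted p under 0.05 (background 18.3%). The estimates themselves were small. Blocked log2 fold changes ran from -0.06 to 0.15, with a median of 0.07 beside -0.0018 over all tested genes. Of the 10, 9 were positive beside 49.6% of all genes. The median log2 ratio of the 10 was 0.015 in pair 1 and 0.080 and 0.074 in pairs 2 and 3. In pair 1, METTL3, FTO, YTHDF1, YTHDF2 and IGF2BP2 were lower with PLEK2 shRNA. The 10 genes were read in the same 6 libraries, so their signs are not separate observations. Over the 10 genes the 95% intervals of the blocked estimates reached from 11.8% lower to 22.3% higher, and 9 of 10 held 0.

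**Figure D2:**
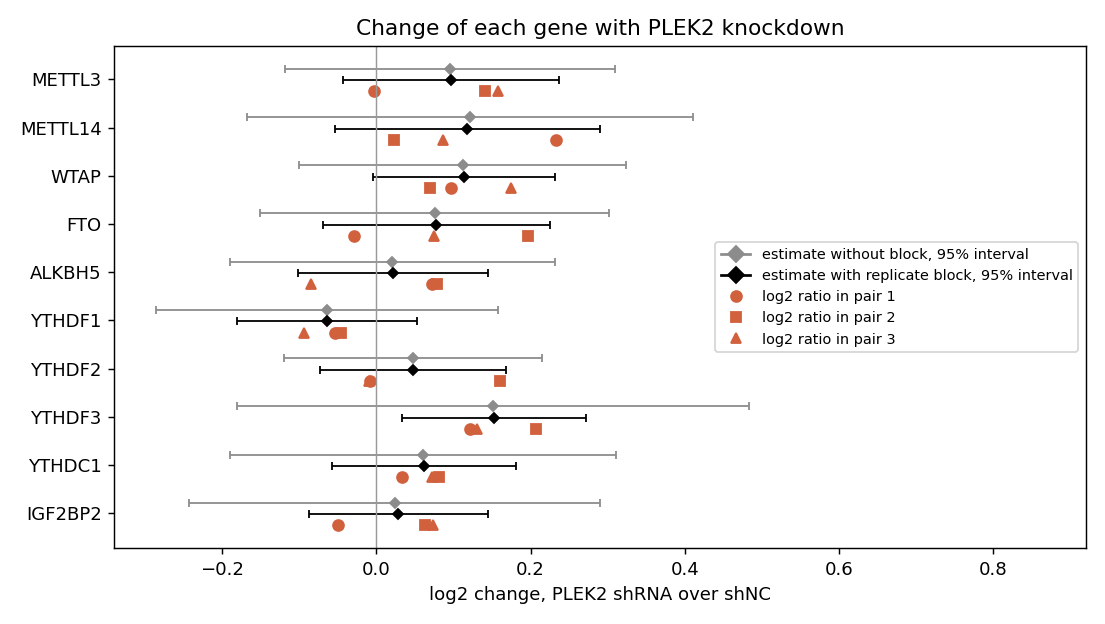
Log2 change of each gene, PLEK2 shRNA over shNC, with red symbols for the ratio in each same-numbered pair of libraries (TMM-scaled CPM), and diamonds for edgeR's estimate with its 95% interval without a block (grey) and with the replicate block (black). The black interval clears 0 for YTHDF3 alone, where it runs from 0.03 to 0.27, and YTHDF1 is the one gene with all 3 pairs below 0.

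Changes within pairs were read from CPM, a count divided by the TMM-scaled library size, in libraries with the same replicate number. Of the 10 genes, 4 were higher with PLEK2 shRNA in all 3 pairs (METTL14, WTAP, YTHDF3 and YTHDC1), where 19.9% of all tested genes were, and 1 was lower in all 3 pairs (YTHDF1), where 21.1% were. With DESeq2's size factors 5 were higher in every pair, METTL3 being added, and with plain library totals 8 were, with FTO, YTHDF2 and IGF2BP2 added as well, while the share of all genes higher in every pair went to 21.5% and 26.8%. The groups overlapped in CPM for all 10 genes, whereas 4.08% of the tested genes were higher and 5.12% were lower without overlap. In FPKM, where no TMM factor enters, 1 of the 10 (YTHDF2) was higher without overlap, beside 6.57% of the tested genes. The TMM factors were 0.984, 0.986 and 0.998 in shNC and 1.021, 1.002 and 1.011 in PLEK2 shRNA replicates 1, 2 and 3. Library totals leave them out and therefore set every gene higher in PLEK2 shRNA relative to shNC libraries than TMM-scaled CPM does. FPKM leaves them out too but also divides by transcript length, and it did not move every gene that way. For example, RBM15 of the wider pathway was at 3.54 FPKM in shNC replicate 2 and 3.33 in PLEK2 shRNA replicate 2. Its log2 ratio in CPM in that pair was 0.02.

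Among the writers, METTL3, the catalytic subunit (NCBI Gene 56339; GRCh38 chromosome 14, 21498133 to 21511342, minus strand), was at 24.62, 20.91 and 21.79 FPKM in shNC replicates 1, 2 and 3 and at 25.44, 23.36 and 24.67 in PLEK2 shRNA replicates 1, 2 and 3. The group means were 22.4 ± 1.94 and 24.5 ± 1.05 FPKM (SD, n = 3). Both libraries of replicate 1 were high, and the PLEK2 shRNA libraries of replicates 2 and 3 lay above their shNC partners, that of replicate 3 level with the highest shNC library. In CPM the log2 ratio within pairs was -0.003, 0.14 and 0.16. Its blocked log2 fold change of 0.10 (standard error 0.07) did not pass (adjusted p 0.451, edgeR).

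METTL14, the RNA-binding partner of METTL3 (NCBI Gene 57721; GRCh38 chromosome 4, 118685392 to 118715433, plus strand), was at 9.24, 8.57 and 8.13 FPKM in the shNC libraries and at 11.09, 8.63 and 8.65 in the PLEK2 shRNA libraries. PLEK2 shRNA replicate 1 was the highest library, and the other PLEK2 shRNA libraries lay within the shNC range. The group means were 8.65 ± 0.56 and 9.46 ± 1.41 FPKM (SD, n = 3), and the blocked log2 fold change was 0.12 (standard error 0.08, adjusted p 0.453 in edgeR's test). Without PLEK2 shRNA replicate 1 the unblocked estimate was -0.003, against 0.12 with all 6 libraries.

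WTAP, the adaptor (NCBI Gene 9589; GRCh38 chromosome 6, 159725585 to 159756319, plus strand), was at 64.88, 60.36 and 56.15 FPKM in the shNC libraries and at 72.19, 64.24 and 62.76 in the PLEK2 shRNA libraries. In each pair the PLEK2 shRNA library was the higher, with log2 ratios in CPM of 0.10, 0.07 and 0.17. The group means were 60.5 ± 4.37 and 66.4 ± 5.07 FPKM (SD, n = 3). The blocked log2 fold change was 0.11 with a 95% interval from -0.005 to 0.23 and an adjusted p of 0.292 by edgeR. Across the 3 writers the FPKM of replicate 1 was the highest of its group in every case.

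METTL3 and METTL14 work as a heterodimer, so their ratio within a library was compared, a measure that library scaling cannot move. METTL3 was 2.60 times METTL14 in FPKM on average. The log2 ratio stood at 1.41, 1.29 and 1.42 in the shNC libraries and at 1.198, 1.44 and 1.51 with PLEK2 shRNA, so the latter enclosed the former. The means, 1.37 ± 0.08 and 1.38 ± 0.16 (SD, n = 3), gave an exact two-sided permutation p of 0.8, where 3 libraries against 3 cannot go below 0.1.

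Some METTL3 sequence is shared with another gene. Its exons overlap those of TOX4, a gene on the opposite strand, over 388 bases in GENCODE 44 (GRCh38), and 13.0% of the 50-base windows of its canonical transcript, the length of the reads here, also occur in TOX4. Whether the counting used strand is not given in the sources used here. The counts of both genes carried decimals in all 6 libraries. METTL3 had 744.23, 588.69 and 617.87 counts in the shNC libraries and 760.8, 697.71 and 721.2 with PLEK2 shRNA. Summed with TOX4 they came to 1659, 1403, 1407, 1710, 1626 and 1592.99, whole numbers within 0.02 in 6 of 6 libraries. METTL3 took between 42.0% and 45.3% of the sum. The sum, which does not depend on how those reads were divided, was at 102 CPM in shNC and 107 CPM in PLEK2 shRNA libraries on average, a log2 difference of 0.08 beside 0.10 for METTL3. This step was added after the decimals were seen.

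**Figure D3:**
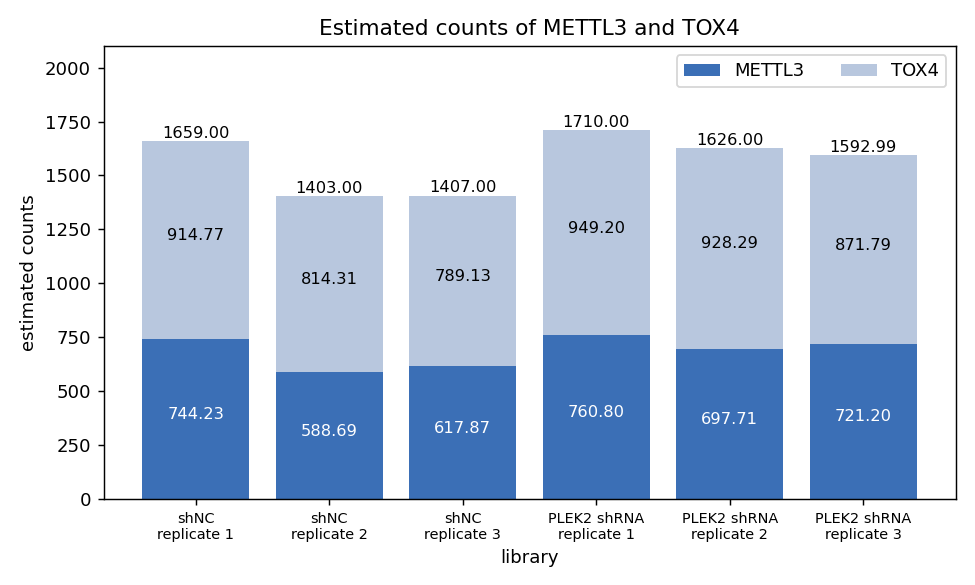
Estimated counts of METTL3 (dark) and of TOX4, on the opposite strand (light), stacked in each of the 6 libraries, with each value in its bar and the sum above it; no scaling for library size is applied. Both genes have decimals while their sums are whole within 0.02, and METTL3 keeps between 42.0% and 45.3% of the sum in both groups.

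Among the erasers, FTO (NCBI Gene 79068; GRCh38 chromosome 16, 53701692 to 54158512, plus strand) was at 10.60, 9.10 and 9.99 FPKM in the shNC libraries and at 10.98, 10.18 and 10.97 in the PLEK2 shRNA libraries. The lowest value was shNC replicate 2, and the other 5 libraries lay between 9.99 and 10.98 FPKM. The group means were 9.90 ± 0.75 and 10.7 ± 0.46 FPKM (SD, n = 3). In CPM the pairs gave -0.03, 0.20 and 0.07, and the blocked log2 fold change of 0.08 had an adjusted p of 0.574 by edgeR.

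ALKBH5 (NCBI Gene 54890; GRCh38 chromosome 17, 18183078 to 18209954, plus strand) was at 30.35, 34.27 and 36.45 FPKM in the shNC libraries and at 33.12, 36.74 and 34.88 in the PLEK2 shRNA libraries. Replicate 1 was the lowest library of both groups, the reverse of the writers. The pairs did not share a direction, with log2 ratios in CPM of 0.07, 0.08 and -0.08. The blocked log2 fold change was 0.02 with a 95% interval from -0.10 to 0.15 and an adjusted p of 0.877 by edgeR. For both erasers the difference between the group means was smaller than the range of the shNC libraries.

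The cytoplasmic readers YTHDF1, YTHDF2 and YTHDF3 are close paralogs. No 50-base window of the canonical transcripts of YTHDF1 or YTHDF3 occurs in another gene of GENCODE 44. Of the YTHDF2 windows 19.0% do, including 13.1% in the pseudogene YTHDF2P1, and none in a gene that the deposited table lists. The counts of the 3 genes were whole numbers in every library.

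YTHDF2 (NCBI Gene 51441; GRCh38 chromosome 1, 28736621 to 28769775, plus strand) was the steadiest of the 10 genes, with its highest library 1.14 times its lowest. It was at 58.40, 54.65 and 59.03 FPKM in the shNC libraries and at 60.67, 62.37 and 59.38 in the PLEK2 shRNA libraries. The PLEK2 shRNA libraries were above the shNC libraries on this scale, and the gap between the highest shNC library and the lowest PLEK2 shRNA library was 0.35 FPKM. After TMM scaling the groups overlapped: the pairs gave log2 ratios of -0.008, 0.16 and -0.010, so the one pair that differed was that of replicate 2. The group means were 57.4 ± 2.37 and 60.8 ± 1.4997 FPKM (SD, n = 3). The log2 fold change was 0.05 (standard error 0.07, adjusted p 0.968) without and 0.05 (standard error 0.06, adjusted p 0.686) with the block in edgeR's test. The blocked 95% interval ran from 4.95% lower to 12.4% higher.

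YTHDF1 (NCBI Gene 54915; GRCh38 chromosome 20, 63195429 to 63216139, minus strand), best known for promoting translation, was at 30.63, 36.23 and 34.51 FPKM in the shNC libraries and at 30.86, 35.58 and 32.55 in the PLEK2 shRNA libraries. Both libraries of replicate 1 were the lowest of their group. In CPM it was lower in each pair, by log2 ratios of -0.05, -0.05 and -0.09, although the FPKM of pair 1 was slightly higher with PLEK2 shRNA. Its blocked log2 fold change of -0.06 (standard error 0.05) did not pass (adjusted p 0.556, edgeR).

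YTHDF3 (NCBI Gene 253943), which acts with the other YTHDF proteins, varied most among the 10 genes, its highest library being 1.55 times its lowest. It was at 21.56, 16.77 and 15.78 FPKM in the shNC libraries and at 24.53, 19.94 and 17.60 in the PLEK2 shRNA libraries. Replicate 1 was far above the other libraries of its group in both groups, and in each pair the PLEK2 shRNA library was the higher. The log2 ratios within pairs were 0.12, 0.21 and 0.13 in CPM. The group means were 18.0 ± 3.09 and 20.7 ± 3.53 FPKM (SD, n = 3). Without the block the log2 fold change of 0.15 had a standard error of 0.15 and an unadjusted p of 0.330 in edgeR's test. With the block the standard error was 0.06, the 95% interval ran from 0.03 to 0.27, and the unadjusted p was 0.0165, which became 0.174 after adjustment over all tested genes. Leaving out one library moved the unblocked estimate between 0.03 (without PLEK2 shRNA replicate 1) and 0.31 (without shNC replicate 1).

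The balance among the YTHDF readers was compared as the share of their summed FPKM. YTHDF2 made up 52.8%, 50.8% and 54.0% of the sum in the shNC libraries and 52.3%, 52.9% and 54.2% with PLEK2 shRNA. The mean shares were 52.5% ± 1.63 and 53.1% ± 0.99 (SD, n = 3), a difference of 0.61 percentage points with an exact two-sided permutation p of 0.6. YTHDF1 had a mean share of 31.0% in shNC and 28.8% in PLEK2 shRNA libraries (exact permutation p 0.4) and was lower in all 3 pairs. YTHDF3 had 16.5% and 18.0% (exact permutation p 0.5) and was higher in all 3 pairs. Within pairs the YTHDF3 share differed by 1.64, 1.34 and 1.63 percentage points and the YTHDF1 share by -1.11, -3.47 and -1.85. An exact test over the 3 pairs, added after seeing the data, gave p 0.25 for YTHDF1 and for YTHDF3, the smallest it can give, and 0.75 for YTHDF2, so neither exact test could pass 0.05.

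YTHDC1, the nuclear YTH reader (NCBI Gene 91746; GRCh38 chromosome 4, 68310387 to 68350090, minus strand), was at 27.35, 23.53 and 22.60 FPKM in the shNC libraries and at 28.39, 25.37 and 23.70 in the PLEK2 shRNA libraries. Replicate 1 was the highest and replicate 3 the lowest library of both groups. Each pair was slightly higher with PLEK2 shRNA, by log2 ratios of 0.03, 0.08 and 0.07 in CPM, and the blocked log2 fold change of 0.06 had an adjusted p of 0.585 by edgeR. Without PLEK2 shRNA replicate 1 the unblocked estimate was -0.02, against 0.06 with all 6 libraries.

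IGF2BP2, a KH domain reader (NCBI Gene 10644; GRCh38 chromosome 3, 185643130 to 185825042, minus strand), was at 50.47, 40.96 and 39.35 FPKM in the shNC libraries and at 51.33, 43.50 and 42.44 in the PLEK2 shRNA libraries. Here the libraries divided by replicate number, with both of replicate 1 above 50 FPKM and the other 4 below 44 FPKM. The log2 ratios within pairs were -0.05, 0.06 and 0.07 in CPM, and the blocked log2 fold change was 0.03 with an adjusted p of 0.819 by edgeR.

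The replicate number took a larger share of the spread than the groups did in 9 of the 10 genes, YTHDF2 being the exception. It has 2 degrees of freedom, more than the groups have, so part of that difference is built in. In log2 CPM, it took more than 50% of the sum of squares over the 6 libraries in 9 of the 10 genes, with a median of 77.6% beside 62.6% over all tested genes, while the groups took a median of 15.2% beside 12.3%. In the blocked fit, a test of the replicate number passed an adjusted p of 0.05 in 4 of the 10 genes (YTHDF1, YTHDF3, YTHDC1 and IGF2BP2), where 28.4% of all tested genes did. This test has 2 degrees of freedom and asks for any difference among the 3 replicate numbers. Its adjusted p in edgeR was 0.00141 for YTHDF3, 0.00632 for IGF2BP2, 0.0150 for YTHDC1 and 0.0388 for YTHDF1. As a description with no test of its own, replicate 1 differed from the mean of replicates 2 and 3 on the log2 scale by 0.37 for YTHDF3, 0.28 for IGF2BP2 and 0.24 for YTHDC1.

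YTHDF1 and ALKBH5 went the other way, with log2 differences of -0.18 and -0.17, and the adjusted p of ALKBH5 for any difference among the replicate numbers was 0.110 in the same edgeR test. In all, replicate 1 was above the mean of the other replicates in 8 of the 10 genes. YTHDF2 stood apart from its paralogs: the replicate number took 0.48% of its sum of squares, its difference was 0.005, and its adjusted p in that edgeR test was 0.996. What the replicate number stands for is not stated in the labels, and its part in these values was not tested further.

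**Figure D4:**
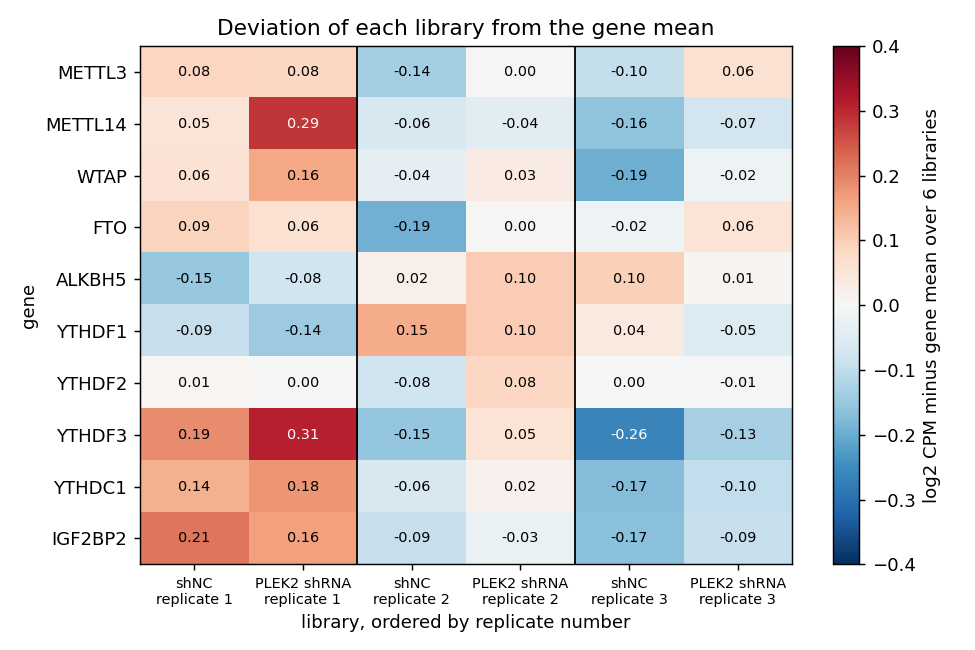
Deviation of each library from the gene's mean over the 6 libraries, in log2 CPM, with libraries side by side by replicate number and vertical lines between the replicate numbers (red above, blue below the mean). Replicate 1 of both groups is above the mean for METTL3, METTL14, WTAP, FTO, YTHDF3, YTHDC1 and IGF2BP2 and below it for ALKBH5 and YTHDF1, while YTHDF2 departs from its mean in replicate 2 alone, by -0.08 in shNC and 0.08 in PLEK2 shRNA.

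The genes whose pattern over the 6 libraries was most like that of YTHDF2 were CCNI, VDAC2 and TBCE, with Pearson correlations of log2 CPM of 0.989, 0.976 and 0.954 among 10140 genes. With 6 libraries that share their depth and their replicate numbers, 14 genes had a correlation over 0.9, so these names are a description. CCNI, for example, was at 130, 121 and 129 CPM in the 3 shNC and at 131, 142 and 130 CPM in the 3 PLEK2 shRNA libraries, with its lowest and highest values in replicate 2 as in YTHDF2.

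The other genes of the pathway were described from a list of 31, all listed and tested. Of these 31, edgeR without a block called 0 at an adjusted p of 0.05 (background 0%), and 0 had an unadjusted p under 0.05 (background 3.09%). DESeq2's Wald test called 0 at an adjusted p of 0.05 (background 0.0926%). With the block 0 passed an adjusted p of 0.05 (background 0.849%) and 5 had an unadjusted p under 0.05, 3 higher and 2 lower with PLEK2 shRNA. That is 5 of 31 beside the background of 18.3% over all tested genes. Their blocked log2 fold changes had a median of -0.006, with 15 positive and 16 negative. Higher in all 3 pairs were 8 of 31 and lower in all 3 pairs were 5, beside 19.9% and 21.1% of all genes. In CPM the groups did not overlap for 1 of the 31 that was higher (HNRNPC) and 2 that were lower (PCIF1 and AHCY), shares near the 4.08% and 5.12% of all tested genes. In FPKM 4 of the 31 were higher without overlap (MAT2B, HNRNPC, ELAVL1 and RIDA), beside 6.57% of all tested genes. Genes lower without overlap were not counted on that scale.

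In the rest of the writer complex (5 genes), blocked log2 fold changes ran from -0.10 for RBM15, which recruits the complex to RNA, to 0.12 for VIRMA, its large scaffold (adjusted p 0.609 and 0.305 in edgeR's test). Of these 5, 4 were negative and none had an unadjusted p under 0.05. VIRMA was at a value near those of METTL3, METTL14 and WTAP. Among the other methyltransferases and their cofactor (5 genes), PCIF1, which methylates cap-adjacent adenosines, was lowest at -0.13 (adjusted p 0.347, edgeR's test). METTL5, an 18S rRNA methyltransferase, was highest at 0.08 (adjusted p 0.557, edgeR's test).

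Of the enzymes of methyl donor supply (3 genes), MAT2B, the regulatory subunit of methionine adenosyltransferase, was at 25.47, 24.05 and 22.76 FPKM in the shNC libraries and at 33.59, 25.57 and 25.85 in the PLEK2 shRNA libraries. The groups were apart on this scale, as for 6.57% of all tested genes, but overlapped in CPM, with 53.1 in shNC replicate 1 and 52.6 in PLEK2 shRNA replicate 2. Its blocked log2 fold change was 0.20 (standard error 0.07, unadjusted p 0.0134, adjusted p 0.160 in edgeR's test), and PLEK2 shRNA replicate 1 was the library farthest from the others. AHCY, which clears the S-adenosylhomocysteine left by methylation, was at 208.79, 192.27 and 191.36 FPKM in the shNC libraries and at 172.14, 189.16 and 190.63 in the PLEK2 shRNA libraries. Its blocked log2 fold change was -0.14 (adjusted p 0.286, edgeR's test), most of it in pair 1.

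The other readers (11 genes) gave both ends of the list. YTHDC2, a YTH domain helicase, was at 8.38, 5 and 4.97 FPKM in the shNC libraries and at 9.32, 6.27 and 6.03 in the PLEK2 shRNA libraries. Replicate 1 was far above the others in both groups, and the pairs gave log2 ratios of 0.09, 0.32 and 0.31 in CPM. Its blocked log2 fold change was 0.23 (standard error 0.07, unadjusted p 0.00658, adjusted p 0.125 in edgeR's test). PRRC2A, a reader described for its role in myelination, was at 111.62, 144.52 and 151.00 FPKM in the shNC libraries and at 95.36, 137.39 and 135.85 in the PLEK2 shRNA libraries, with a blocked log2 fold change of -0.18 (standard error 0.06, unadjusted p 0.00601, adjusted p 0.120 in the same edgeR test).

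IGF2BP3, an oncofetal paralog of IGF2BP2, and FXR2, a paralog of the fragile X protein, were named after their values were seen. IGF2BP3 was at 51.09, 44.73 and 46.79 FPKM in the shNC libraries and at 64.62, 50.93 and 56.36 in the PLEK2 shRNA libraries, so PLEK2 shRNA replicate 2 lay just below shNC replicate 1. Its blocked log2 fold change of 0.20 (standard error 0.05, unadjusted p 0.00278) had an adjusted p of 0.0954 by edgeR, beside 0.03 for IGF2BP2. With library totals in place of TMM, the blocked test took IGF2BP3 past an adjusted p of 0.05, as it did 1.48% of all tested genes, a setting added after seeing the data. FXR2 had a blocked log2 fold change of -0.15 (unadjusted p 0.0336, adjusted p 0.230 in edgeR's test). IGF2BP1 was nearly silent in these cells, between 0.14 and 0.22 FPKM.

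Among the partners of readers (7 genes), which include CNOT1, the scaffold of the deadenylase that YTHDF2 recruits, and RIDA and POP1, which link YTHDF2 to RNA cleavage, none had an unadjusted p under 0.05 with the block. RIDA had the largest blocked log2 fold change, 0.23 (standard error 0.12, adjusted p 0.316 in edgeR's test), and UPF1, an RNA helicase of nonsense-mediated decay, had the smallest, -0.04 (adjusted p 0.724). With replicate 1 left out of both groups, a setting also added after seeing the data, the blocked test called 2 of the 31 genes, YTHDC2 and CNOT1, at an adjusted p of 0.05, beside 4.06% of all tested genes, and without replicate 2 or 3 it called 0. CNOT1 was lower with PLEK2 shRNA in pair 1, by a log2 ratio of -0.13, and higher in pairs 2 and 3, by 0.16 and 0.24, and with all 6 libraries its blocked log2 fold change was 0.09 (unadjusted p 0.215, edgeR).

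**Figure D5:**
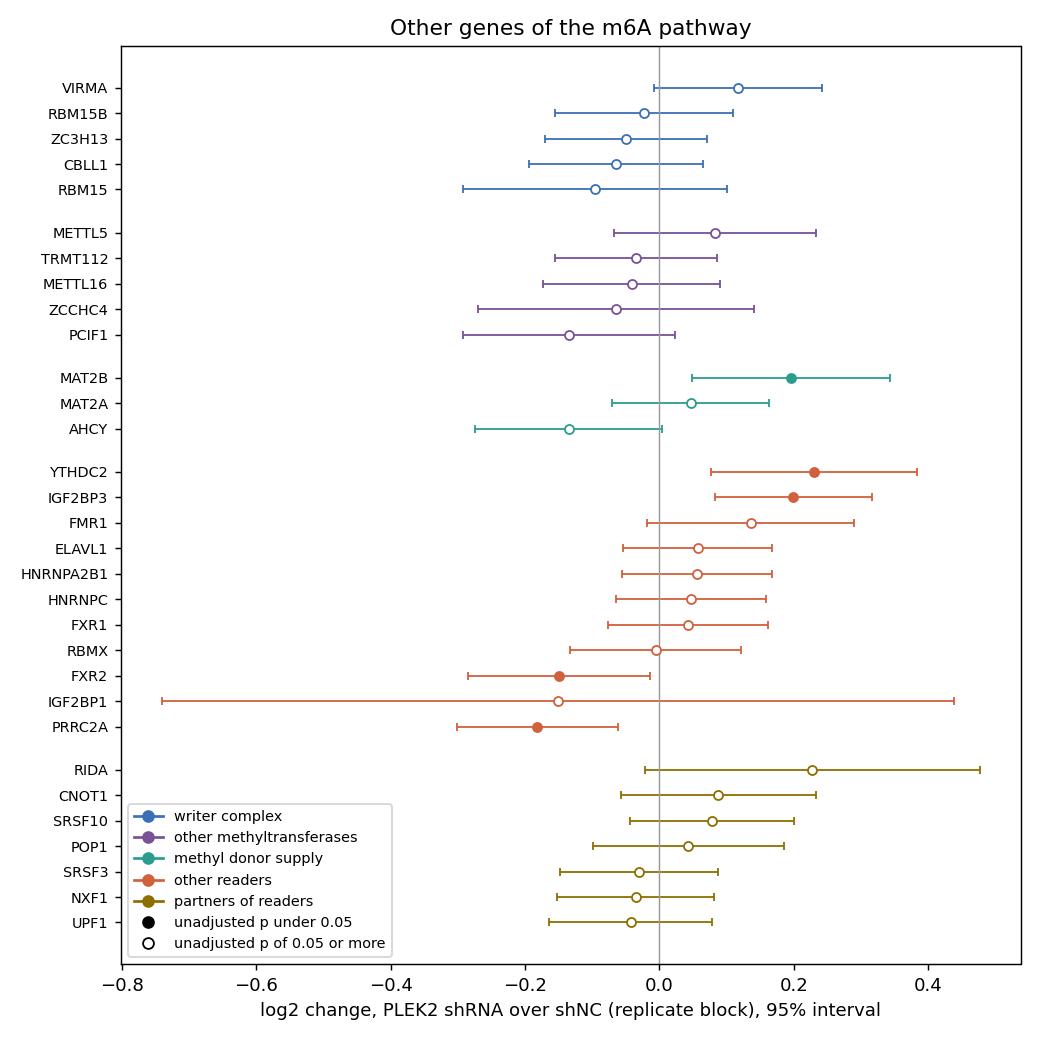
Blocked log2 change, PLEK2 shRNA over shNC, of the 31 other m6A pathway genes in 5 lists, with 95% intervals from edgeR; filled points have an unadjusted p under 0.05. The 5 filled points are MAT2B, YTHDC2 and IGF2BP3 on the positive side and FXR2 and PRRC2A on the negative side (18.3% of all tested genes would be filled). None has an adjusted p under 0.05, as 0.849% of all tested genes do.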

How the data were processed

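The authors deposited estimated counts, not always whole, for 3 shNC and 3 PLEK2 shRNA libraries (single-end, 50 bases), and values read here as FPKM, since the deposited header gives no unit. The submitters' processing notes name HISAT2 2.0.4, Bowtie2 2.2.5, RSEM 1.2.12, DESeq2 1.4.5 and a mouse build, although the genes are human, so the build behind the counts is unsettled; coordinates, exons, 3′ UTRs and windows come from GENCODE 44 on GRCh38. The authors' group means were not used.

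Estimated counts were rounded, filtered (filterByExpr), scaled by TMM and tested with edgeR 4.0.16 (glmQLFTest, R 4.3.3; Benjamini-Hochberg over 12959 of 17047 genes). Log2 fold changes from the deposited counts are PLEK2 shRNA over shNC. Exact permutation tests used scipy 1.17.1. Alternatives were DESeq2's size factors and Wald test (DESeq2 1.42.0), library totals, a minimum of 1 count, limma-trend (limma 3.58.1) on log2(FPKM + 1), the replicate block and leaving out each library. The block with library totals or without a replicate number, the test of the replicate number, the exact test over pairs and the sum of METTL3 and TOX4 were added after seeing the data. The fits were tested on simulated counts.

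Same-numbered libraries were treated as pairs: the correlation of their deviations from the group means, over 10141 genes, was 0.733, 0.549 and 0.541, against -0.628 to 0.35 for other numbers; no source states a shared day. Libraries of a group differed beyond counting error (chi-square per gene 3.05 to 20.2).

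The 10 genes, the pathway lists and the tests were chosen with earlier results of these data known. Named genes were the 10, PLEK2, any pathway gene past an adjusted p of 0.05 in edgeR with or without the block, the smallest and largest blocked change in each list, and the 3 genes most like YTHDF2 among those with a mean log2 CPM over 3; others were named after their values were seen.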

Additional observations from a re-analysis of the deposited data

How the results depend on the processing

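None of the 10 genes was called at an adjusted p of 0.05 under any alternative run, and their lowest adjusted p was 0.0929 (highest 0.9999). Of 160 alternative log2 fold changes, 152 kept their direction, and the 8 that turned all came from leaving out 1 library. The leave-one-out ranges of these genes were -0.034 to 0.085 for ALKBH5 (negative without shNC replicate 1 or PLEK2 shRNA replicate 2), -0.133 to 0.0040 for YTHDF1 (positive without shNC replicate 2), -0.055 to 0.16 for IGF2BP2 (negative without shNC replicate 2 or 3 or PLEK2 shRNA replicate 1), -0.0028 to 0.19 for METTL14 and -0.015 to 0.17 for YTHDC1 (both negative without PLEK2 shRNA replicate 1). The others kept their sign but moved by over 1.5 times: FTO 0.013 (without shNC replicate 2) to 0.16 (without shNC replicate 1), METTL3 0.061 to 0.18 (without the same libraries), WTAP 0.056 (without shNC replicate 3) to 0.18 (without shNC replicate 1), YTHDF2 0.019 (without PLEK2 shRNA replicate 2) to 0.076 (without shNC replicate 1) and YTHDF3 0.026 (without PLEK2 shRNA replicate 1) to 0.31 (without shNC replicate 1). Fewer libraries are the alternative's own construction, and no other cause was tested. An unadjusted p under 0.05 was met by 0 of the 10 genes without a block (3.09% of all genes), by 1 with the replicate block (YTHDF3; 18.3%), by 2 with the block and library totals (WTAP and YTHDF3; 19.9%), and with the block by 3 without replicate 1 in both groups (METTL3, WTAP and YTHDF3; 19.3%), by 0 without replicate 2 (11.7%) and by 1 without replicate 3 (YTHDF3; 14.4%). The paired fits called 1 of the 31 pathway genes with library totals (IGF2BP3) and 2 without replicate 1 (YTHDC2 and CNOT1), and 0 without replicate 2 or 3. Over all tested genes, 0 were called without a block, 12 with DESeq2's Wald test, 110 with the block, 192 with the block and library totals, and 528, 18 and 297 with the block and without replicate 1, 2 and 3. Genes of the 10 moving one way in all pairs numbered 5 with TMM, 6 with DESeq2's size factors and 9 with library totals. In the same order, 19.9%, 21.5% and 26.8% of all tested genes were higher in all pairs. Lower in all pairs were 21.1%, 19.6% and 15.8%. PLEK2 was called with DESeq2 (-1.53), with the replicate block (-1.57), with the block and library totals (-1.54) and with the block without replicate 1, 2 or 3 in both groups (-1.21, -1.78 and -1.74), and its leave-one-out range was -1.74 to -1.26, called without PLEK2 shRNA replicate 1. The YTHDF2 share of the YTHDF sum differed by -0.27 to 1.34 percentage points with 1 library left out, negative without shNC replicate 2. The METTL3 to METTL14 log2 ratio differed by -0.016 from estimated counts in place of FPKM, and by -0.057 to 0.10 with 1 library left out, negative without shNC replicate 2 or PLEK2 shRNA replicate 2 or 3; the cause was not tested. Counts of 324 and more leave a counting error of at most 5.56% in a single library.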
